A study of Mus musculus with 9 samples.

Results

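The GABA and glycine signalling genes are 29 listed mouse genes that make, package, sense, clear or anchor the components of fast and slow inhibitory transmission. They were taken by gene symbol from a list, by a rule that uses no measured value though earlier results of these data were known, out of the 26602 genes with at least 1 count in the series. All 29 had a count in at least 1 library. For the comparison between genotypes a gene needed at least 10 counts summed over the 9 libraries, which 18127 genes had, and 28 of the 29 were among them. Gabrr1 was the gene that did not pass.

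Midbrain tissue that includes the substantia nigra pars compacta (SNpc) came from 4 wild-type mice (DJ-1+/+) and 5 knockout mice (DJ-1-/-), all 3 to 4 months old, and each mouse gave 1 RNA library. The knockout mice lack DJ-1, the product of Park7, in every tissue, through a targeted allele that carries a Neo cassette. The wild-type mice were littermates from heterozygous parents on a C57BL/6 background, and no treatment was given to either group. The sex of the animals is not given in the sources used here, but the Xist counts given below separate the libraries into low and high. The tissue was sequenced in bulk, so fewer cells of a type and less RNA per cell cannot be told apart in any value that follows.

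GABA is made from glutamate by the glutamate decarboxylases, loaded into synaptic vesicles by the vesicular inhibitory amino acid transporter, and removed from the cleft by transporters on neurons, glia and meninges. It opens chloride channels assembled from GABA-A receptor subunits and acts more slowly through the GABA-B receptor, which couples to G proteins. Glycine uses the same vesicular transporter and its own chloride channels, and serves mainly the brainstem and spinal cord. In the midbrain, GABAergic neurons of the substantia nigra pars reticulata and the ventral tegmental area inhibit the dopaminergic neurons beside them.

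The libraries count the 3′ ends of transcripts with molecular tags, so that a long transcript gives no more counts than a short one, and levels are given as counts per 1000000 counts of the library (cpm). Totals ran from 841974 to 886085 counts in wild-type and from 967751 to 1098125 in knockout mice, so every knockout library was the deeper one, and raw counts in it are higher at the same cpm. A level of 3 counts, taken as the lowest that can be shown, equals 2.73 to 3.56 cpm and covers counting error only. The range of levels was narrow, with the highest gene of the series at 0.126% of all counts, 5 genes above a mean of 500 counts, and 3391 genes, 15 of them GABA or glycine genes, above 100. Whether the molecular tags were saturated in abundant genes, and what this does to their levels, differences and spread, was not tested. Park7 was 135 ± 15.7 cpm (SD, n = 4) in wild-type and 20.4 ± 4.54 cpm (SD, n = 5) in knockout mice, and no library went against its label.

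Some libraries stood apart in both genotypes. In each library at least 11 of the 12 dopaminergic marker genes, Th and Slc6a3 among them, had counts. Counts of these genes do not show that a library held midbrain alone. The 12 Hox genes, which mark hindbrain and spinal cord and are silent in midbrain, summed to 185, 50, 375 and 4.51 cpm in wild-type replicates 1 to 4 and to 242, 219, 98, 245 and 0 cpm in knockout replicates 1 to 5. Wild-type replicate 1 held 127 counts of the cerebellar granule cell gene Cbln3, against 2 to 10 in the other libraries. Xist, the RNA that coats the silenced X chromosome of females, was at 0, 1 and 2 counts in wild-type replicates 1 and 4 and knockout replicate 5, and 146 to 193 in the other 6. The libraries low in Xist were thus unevenly shared by the genotypes, and the main fit held no term for it. Wild-type replicate 4 stood apart with 902 cpm of choroid plexus markers against 111 to 391 in the others. It was also lowest in midbrain GABAergic identity markers, at 133 cpm against 261 to 472, and in dopaminergic markers, at 577 cpm against 672 to 1131. Both of these lists hold En1, at 10.2 cpm in this library and 47.7 to 107 cpm in the others. Not every marker followed, as Slc6a3 was lower in wild-type replicate 3, at 23.3 cpm, than in replicate 4, at 30.5 cpm. The summed markers of forebrain neurons (380 to 488 cpm) and astrocytes (1627 to 1814 cpm) varied less, and every list overlapped between the genotypes.

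**Figure D1:**
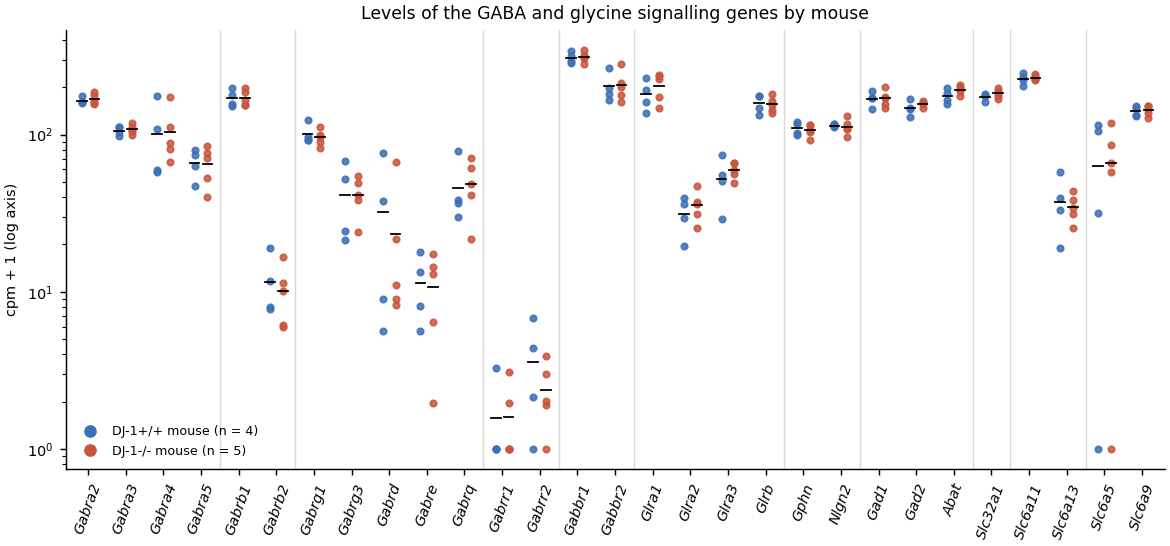
Level of each of the 29 genes in each mouse, as cpm + 1 on a log axis, with 4 DJ-1+/+ mice in blue, 5 DJ-1-/- mice in red and a bar at each genotype's mean. Gabra2, Slc32a1 and Slc6a11 sit in tight groups between 155 and 244 cpm, whereas Gabra4, Gabrd and Slc6a5 spread widely within both genotypes.

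The genes that make and package GABA overlapped between the genotypes in level. Gad1 and Gad2 encode the enzymes that turn glutamate into GABA, Gad1 the form found through the cell body and Gad2 the form at terminals. In cpm, Gad1 ranged from 144 to 201 and Gad2 from 129 to 167 over the 9 mice. Gad1 was 168 ± 18.3 cpm in wild-type (SD, n = 4) and 169 ± 20.9 cpm in knockout mice (SD, n = 5), a ratio of levels whose 95% interval ran from 0.867 to 1.17. Gad2 was 147 ± 15.8 and 156 ± 5.82 cpm (SD, n = 4 and n = 5), with an interval of 0.95 to 1.19. Gad1 overlaps the antisense transcript Gad1os, and the strand setting of the counting is not given in the sources used here, so their reads cannot be told apart. Slc32a1 and Glra1 likewise overlap predicted genes on the other strand.

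Slc32a1, the transporter that fills vesicles with GABA or glycine, had 147, 156, 156 and 141 counts in the wild-type mice and 196, 193, 177, 181 and 171 in the knockout mice. Scaled by depth this was 159 to 181 cpm and 167 to 196 cpm, so the genotypes overlapped, with a log2 fold change (knockout over wild-type) of 0.07 and a standard error (SE) of 0.07. The groups shared the range from 167 to 181 cpm.

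Abat, the transaminase that breaks GABA down, had 166, 137, 157 and 146 counts in wild-type and 199, 212, 170, 199 and 193 in knockout mice. Its level was 175 ± 18.5 cpm (SD, n = 4) and 192 ± 11.5 cpm (SD, n = 5). Of the 28 genes tested it had the smallest p, 0.113 in edgeR's quasi-likelihood test with an adjusted p (Benjamini-Hochberg, over all genes tested) of 1, at a log2 fold change of 0.14 (95% interval -0.04 to 0.31). Wild-type replicates 1 and 3, at 197 and 183 cpm, lay inside the knockout range of 175 to 206. With each library left out in turn the log2 fold change ran from 0.08, without wild-type replicate 2, to 0.20, without wild-type replicate 1. The unadjusted p of edgeR's test was 0.366 in the former case and 0.0328 in the latter.

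Among the transporters that clear GABA, Slc6a11, found mainly on astrocytes, was the higher in level. It had 187, 215, 175 and 204 counts in wild-type mice and 226, 243, 218, 234 and 239 in knockout mice, which is 204 to 244 cpm over all 9. The means of 225 ± 17 and 229 ± 8.1 cpm (SD, n = 4 and n = 5) differed by less than either SD.

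Slc6a13, a GABA and taurine transporter known from the meninges, was lower and less even, and was singled out with its values in view. It stood at 32.1, 56.8, 38.4 and 18.1 cpm in wild-type replicates 1 to 4 and at 33, 42.8, 37.1, 30 and 24.4 cpm in knockout replicates 1 to 5. The summed meningeal fibroblast markers, 11 of 12 with counts and Igf2 at 0, were 355, 517, 501 and 296 cpm and 469, 545, 517, 321 and 292 cpm in the same order. The 4 libraries with the least of Slc6a13 were thus the 4 with the least of these markers, and the part of the markers in its level was not tested. Between genotypes Slc6a13 had a log2 fold change of -0.11 (SE 0.26).

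The glycine transporters differed sharply in how they behaved across mice. Slc6a9, the glial transporter that keeps glycine low around synapses, stood at 152, 132, 147 and 130 cpm in wild-type and 151, 151, 127, 145 and 137 cpm in knockout mice. It overlaps B4galt2 and Ccdc24 on the other strand.

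Slc6a5, the transporter of glycinergic neurons that recaptures glycine for release, had the largest spread between mice relative to counting error. It had 88, 27, 98 and 0 counts in wild-type replicates 1 to 4 and 118, 93, 63, 55 and 0 in knockout replicates 1 to 5. In each genotype 1 mouse had no count, which allows up to 3.39 cpm in wild-type replicate 4 and 2.92 cpm in knockout replicate 5, whereas the highest mouse reached 118 cpm. These are the libraries in which the summed Hox genes were 4.51 and 0 cpm. The genotype means, 62.3 ± 55.8 cpm (SD, n = 4) and 64.9 ± 43.3 cpm (SD, n = 5), gave a log2 fold change of 0.07 (SE 0.66, 95% interval -1.32 to 1.46), and of -0.03 without those 2 libraries. With the summed Hox level as a covariate it was -0.04. The interval admits large differences in both directions, and the mice of one genotype differed more than the genotypes did.

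The promoter of Slc6a5 is shown, picked once its values and the Hox sums were known. The Hox sum serves here as a marker of tissue position, and an action of HOX proteins on Slc6a5 was not tested. Slc6a5 lies on chromosome 7 from 49910146 to 49963856 on the plus strand (GRCm38, GENCODE M21), and RefSeq windows of 250 bases before to 50 after a start site were read for 26 of the 29 genes (Abat, Gabrd and Glra1 were not matched). Capitals mark TGATNNAT, the composite site to which PBX and HOX proteins bind together, searched on both strands. The upstream Slc6a5 window, chr7:49910049-49910348 on the plus strand (GRCm38.p6), read 5′ to 3′:
Slc6a5 promoter: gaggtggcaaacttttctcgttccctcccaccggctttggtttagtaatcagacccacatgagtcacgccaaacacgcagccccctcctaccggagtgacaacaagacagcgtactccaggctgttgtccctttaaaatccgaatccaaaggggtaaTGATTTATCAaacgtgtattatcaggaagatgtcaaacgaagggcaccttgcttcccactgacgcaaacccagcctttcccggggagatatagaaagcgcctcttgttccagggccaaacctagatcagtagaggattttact
It holds 2 overlapping matches, 93 bases before the start site on the same strand and 91 bases before it on the other. That start site is the RefSeq one at 49910299, downstream of the GENCODE start given above, so the matches lie inside the gene as GENCODE draws it. Of all 32851 windows, 8.85% held at least 1 match and 1.07% at least 2. At least 1 match was also found in windows of Slc6a13 and Slc6a9. A match is a run of letters and not a measured site.

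In all 7 motifs were searched in these windows, once the values were known. AGATAA, read by GATA factors, stood in none of 35 member windows and in 11.2% of all. Of 3 E-box forms, CAGCTG stood in windows of 3 of the genes and in 16.3% of all windows. The form CAGATG stood in windows of 5 of the genes and in 17.2% of all. The form CACCTG stood in windows of 8 of the genes and in 20.2% of all. TGACGTCA (1.79% of all windows) and TTCAGNACC (1.21%), a cyclic AMP response element and part of the REST element, were in no member window.

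Of the GABA-A receptor alpha subunits, whose surfaces form part of the GABA and benzodiazepine sites, Gabra2 was the most abundant. It had 134, 141, 151 and 139 counts in wild-type and 162, 195, 179, 150 and 162 in knockout mice, giving 163 ± 8.58 and 167 ± 13 cpm (SD, n = 4 and n = 5). Gabra3, on the X chromosome, was as even, at 96.6 to 117 cpm. Their 95% intervals for the ratio of genotypes were 0.922 to 1.15 and 0.898 to 1.14.

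Gabra4 and Gabra5 were less even, and are described with their values in view. Gabra4, an alpha subunit found with delta outside synapses in thalamus and dentate gyrus, stood at 57, 108, 58.2 and 175 cpm in wild-type replicates 1 to 4 and at 66.1, 87.4, 110, 79.6 and 172 cpm in knockout replicates 1 to 5. The 4 libraries with summed Hox genes at or under 98 cpm held 108 to 175 cpm of Gabra4, and the other 5 held 57 to 87.4 cpm. Gabra5, whose receptors also lie largely outside synapses, stood at 78.4, 62.5, 73.3 and 46.3 cpm in wild-type and at 84.1, 70.1, 75.3, 51.7 and 39 cpm in knockout mice. It was lowest in the same 2 mice in which Gabra4 was highest, but the next lowest, knockout replicate 4, had a high Hox sum of 245 cpm. The log2 fold changes were 0.04 (SE 0.31) for Gabra4 and -0.02 (SE 0.20) for Gabra5.

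The beta subunits, which complete the GABA site, held an abundant and a scarce gene. Gabrb1 had 131, 157, 130 and 174 counts in wild-type and 154, 180, 148, 179 and 201 in knockout mice, or 170 ± 21 and 170 ± 19.2 cpm (SD, n = 4 and n = 5). Gabrb2 had 5 to 16 counts per library, with its 2 highest, 18.1 and 15.6 cpm, in wild-type replicate 4 and knockout replicate 5.

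Gabra4 and Gabrb1 lie on opposite strands of chromosome 5 and overlap at their starts in GENCODE M21, Gabra4 from 71569749 to 71658308 (minus) and Gabrb1 from 71658113 to 72149037 (plus). The RefSeq start sites used for the windows differ from this for Gabrb1, at 71658308 for Gabra4 and 71657921 for the first Gabrb1 start, which is 387 bases apart. Gabra4 varied 3.07-fold between the lowest and highest mouse and Gabrb1 1.3-fold. These promoter windows are shown for that contrast, with CG dinucleotides in capitals and each read 5′ to 3′ on its own strand, chr5:71658259-71658558 (minus) for Gabra4 and chr5:71657671-71657970 (plus) for Gabrb1.
Gabra4 promoter: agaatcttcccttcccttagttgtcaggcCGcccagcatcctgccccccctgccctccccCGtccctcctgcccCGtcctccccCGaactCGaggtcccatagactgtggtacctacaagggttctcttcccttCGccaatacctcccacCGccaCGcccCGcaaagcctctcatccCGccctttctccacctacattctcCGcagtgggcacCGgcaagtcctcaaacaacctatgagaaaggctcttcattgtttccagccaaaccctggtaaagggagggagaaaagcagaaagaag
Gabrb1 promoter: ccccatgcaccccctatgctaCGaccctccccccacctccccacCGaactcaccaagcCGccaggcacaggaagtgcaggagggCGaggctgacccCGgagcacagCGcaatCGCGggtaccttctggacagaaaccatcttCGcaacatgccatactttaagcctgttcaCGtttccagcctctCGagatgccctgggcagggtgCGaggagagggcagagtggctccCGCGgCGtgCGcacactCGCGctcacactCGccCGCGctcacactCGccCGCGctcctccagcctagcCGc
The Gabra4 window holds 12 CG dinucleotides and this Gabrb1 window 25, while a second Gabrb1 window, at a start site of 71699932, holds 9, and the median of all 32851 windows was 7. Gabra2 and Gabrg1, in the same chromosome 5 cluster, stayed within 1.19-fold and 1.49-fold of their lowest mouse.

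**Figure D2:**
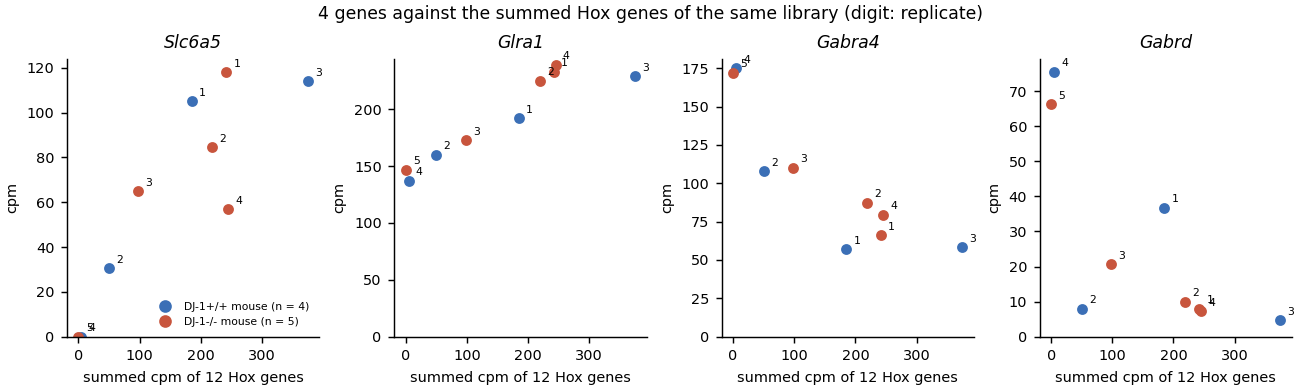
Level in cpm of Slc6a5, Glra1, Gabra4 and Gabrd (y axis) against the summed cpm of 12 Hox genes (x axis) in the same library, with DJ-1+/+ mice in blue, DJ-1-/- mice in red and the replicate number beside each point. Slc6a5 and Glra1 are lowest, and Gabra4 and Gabrd highest, in the libraries at 0 and 4.51 cpm of Hox genes.

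Of the subunits that take the remaining place in the receptor, Gabrg1 was the most abundant, with 80, 107, 78 and 81 counts in wild-type and 89, 105, 96, 79 and 113 in knockout mice. Wild-type replicate 2, at 122 cpm, stood above the other wild-type mice at 90.7 to 95 cpm. Gabrg3 was lower, at 20.2 to 67.1 cpm, and the extremes of its range were both wild-type mice.

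Gabrd, the delta subunit of receptors that give tonic inhibition in cerebellar granule cells, thalamus and dentate gyrus, had 31, 7, 4 and 67 counts in wild-type replicates 1 to 4 and 8, 11, 20, 7 and 68 in knockout replicates 1 to 5. Wild-type replicate 4 and knockout replicate 5, at 75.6 and 66.3 cpm, were far above the rest, and wild-type replicate 1 came next at 36.8 cpm. In that order these libraries held 1, 2 and 0 counts of Xist, against 146 to 193 in all others. They held 5, 2 and 127 counts of the cerebellar gene Cbln3. The summed cerebellar markers, 12 genes all with counts, were 925, 881 and 1613 cpm in the same order. The other libraries held 625 to 790 cpm, so the libraries highest in Gabrd were also those highest in these summed markers. The part of cerebellar tissue in these levels was not tested, nor was that of the difference marked by Xist. The genotype means were 31.3 ± 32.9 cpm (SD, n = 4) and 22.4 ± 25.1 cpm (SD, n = 5). The log2 fold change was -0.48 (SE 0.68, 95% interval -1.93 to 0.97), with an adjusted p of 1 in edgeR. Without knockout replicate 5 the log2 fold change was -1.46 with an unadjusted p of 0.0336 in edgeR's test, and with the log2 level of Xist as a covariate it was 0.65, so that its size and its sign changed with these choices. The gene sits on the minus strand at chr4:155384980-155398112 (GRCm38), 4.47 Mb from Park7.

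The epsilon and theta subunits, Gabre and Gabrq, are encoded near Gabra3 on the X chromosome and are known from hypothalamic and monoaminergic neurons. Gabrq had 30, 68, 25 and 33 counts in wild-type and 60, 44, 68, 46 and 21 in knockout mice, and Gabre had 1 to 16 counts per library. Both were highest in wild-type replicate 2, at 77.3 and 17 cpm, next highest in knockout replicate 3, and lowest in knockout replicate 5, at 20.5 and 0.974 cpm. Their log2 fold changes were 0.08 (SE 0.31) and -0.11 (SE 0.52).

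The rho subunits, known from retinal bipolar cells, were at the limit of detection. Gabrr1 had 0, 2, 0 and 0 counts in wild-type and 0, 0, 0, 2 and 1 in knockout mice, and Gabrr2 had 0, 1, 5 and 3 in wild-type and 2, 1, 0, 1 and 3 in knockout mice. With the group means at or under 3 counts, no fold change is given for either.

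Both GABA-B receptor subunits were well expressed, and Gabbr1, which binds GABA, was the highest of the 29 genes. Gabbr1 had 247, 275, 246 and 302 counts in wild-type and 304, 308, 295, 310 and 352 in knockout mice, or 308 ± 24.4 and 310 ± 23.1 cpm (SD, n = 4 and n = 5). Gabbr2, the partner that couples to the G protein, was lower and less even, from 160 to 279 cpm, with 265 and 279 cpm in wild-type replicate 4 and knockout replicate 5 and at most 211 cpm in the others. Since the receptor is an obligate pair, their ratio was compared within each mouse. It was 1.78, 1.59, 1.58 and 1.29 in wild-type and 1.9, 1.57, 1.44, 1.59 and 1.23 in knockout mice, a mean difference of -0.01 on the log2 scale (two-sided exact permutation test, p = 0.905, adjusted p = 0.905 over 4 ratios).

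Of the glycine receptor subunits, Glra1 was the highest in level and was lowest in the mice where the Hox genes were lowest. Glra1, the alpha subunit of adult brainstem and spinal cord, had 162, 141, 197 and 121 counts in wild-type replicates 1 to 4 and 233, 247, 168, 231 and 151 in knockout replicates 1 to 5. The 3 lowest mice, at 137, 147 and 160 cpm, were those with the least of the Hox genes, and the 4 highest, at 225 to 239 cpm, were those with the most. The part of tissue position in these levels was not tested. The means of 180 ± 40.2 cpm (SD, n = 4) and 203 ± 40.8 cpm (SD, n = 5) gave a log2 fold change of 0.18 (SE 0.15, 95% interval -0.14 to 0.50).

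Glrb, the beta subunit that binds gephyrin and is shared by all synaptic glycine receptors, was steadier than Glra1, at 133 to 179 cpm, with a log2 fold change of -0.02 (SE 0.10). The ratio of Glra1 to Glrb within a mouse was 1.09, 1.21, 1.31 and 0.938 in wild-type and 1.43, 1.25, 1.27, 1.56 and 1.03 in knockout mice, a difference of 0.20 on the log2 scale (two-sided exact permutation test, p = 0.222, adjusted p = 0.889). Glra2, the alpha form that predominates before birth, and Glra3 were at 18.6 to 46.4 and 27.9 to 72.7 cpm, both lowest in wild-type replicate 3, and each had a log2 fold change of 0.18 (SE 0.23 and 0.20).

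The scaffold gene Gphn, which encodes the gephyrin that holds both receptor types at the synapse, and Nlgn2, the adhesion protein of inhibitory synapses, varied little. Nlgn2 stood at 110, 116, 112 and 115 cpm in wild-type and 115, 108, 95.9, 130 and 107 cpm in knockout mice, with means of 113 ± 2.64 and 111 ± 12.6 cpm (SD, n = 4 and n = 5). Gphn was 109 ± 10.3 and 106 ± 9.4 cpm (SD, n = 4 and n = 5).

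**Figure D3:**
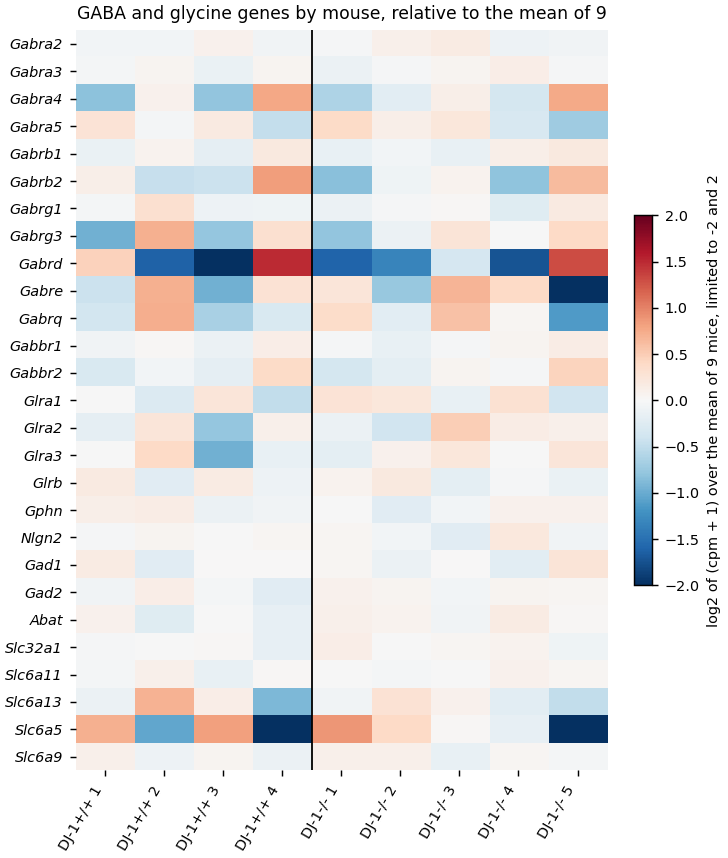
Each gene (rows) in each mouse (columns, DJ-1+/+ left and DJ-1-/- right of the line), coloured by log2 of cpm + 1 over the mean of the 9 mice, limited to -2 and 2, without Gabrr1 and Gabrr2. The strongest colours lie in Gabrd, Slc6a5 and Gabre, with paler ones in genes such as Gabra4, Gabrq and Gabrg3. DJ-1+/+ 4 and DJ-1-/- 5 share the direction of Gabrd, Slc6a5 and Gabra4, but not of Gabre, at 12.4 and 0.974 cpm.

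Mouse-to-mouse differences exceeded counting error in many of these genes. The spread between mice of one genotype was set against counting error as a chi-square per degree of freedom, which is near 1 where counting error alone acts. Its median was 2.2 over the 28 genes and 1.12 over all 18127, and 16 of the 28 exceeded 2 against 19.3% of all genes. The measure also grows with the number of counts, on which the genes were not matched. The highest were Slc6a5 (35.7), Gabrd (29.3), Gabra4 (21.3), Gabbr2 (9.4), Gabrq (8.44) and Glra1 (8.09). By the coefficient of variation over the 9 mice, which takes no account of counting error, Gabrd (103%) stood above Slc6a5 (72%). At the other end, Gabra3 (0.426), Slc32a1 (0.608), Slc6a11 (0.642), Slc6a9 (0.743), Gabra2 (0.74) and Gad2 (0.766) lay under 1. The part of the narrow range of levels described above in these low values was not tested, and they are not read here as a sign of stable genes.

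**Figure D4:**
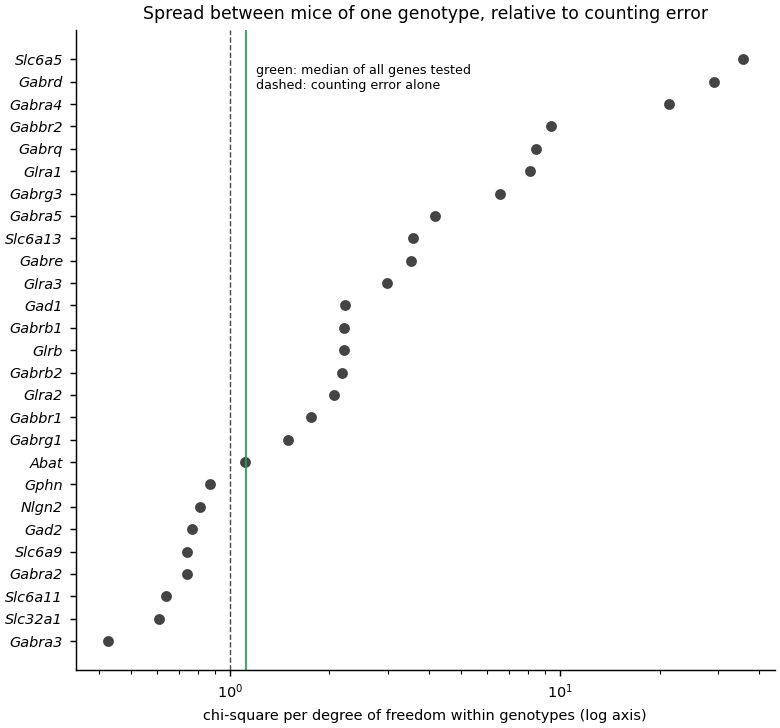
Spread between mice of one genotype for each gene with a fold change, as chi-square per degree of freedom on a log axis, ordered from the highest. Slc6a5, Gabrd and Gabra4 lie above 20, and the dashed line at 1 and the green line at 1.12 mark counting error alone and the median of all genes tested.

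Wild-type replicate 4 and knockout replicate 5, the libraries with 4 and 0 counts over the 12 Hox genes, held the 2 highest levels of the 9 for Gabra4, Gabrb1, Gabrb2, Gabrd, Gabbr1 and Gabbr2, which is 6 genes, while 5.52% of all genes tested had that order. They held the 2 lowest for the 5 genes Gabra5, Glra1, Slc32a1, Slc6a13 and Slc6a5, against 5.79% of all genes tested. Both mice also had at most 2 counts of Xist, and wild-type replicate 1 had 0, so that the Hox and Xist patterns overlap in these mice and cannot be fully told apart. The libraries were singled out by their Hox counts after the data were seen, and these shares are given with no test. As with the spread, the genes were not matched to all genes on the number of counts.

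Between the genotypes, 0 of the 28 genes tested passed 0.05 before adjustment by the quasi-likelihood test of edgeR, where 2.83% of all genes tested did, and DESeq2 also placed 0 there. None had an adjusted p under 0.05, a call that 0.00552% of all genes reached, Park7 being the single one. Groups of cpm without overlap were found for 0 of the 28 and for 1.25% of all genes tested. Over the 27 genes with a fold change 17 were higher and 10 lower in knockout mice, and the median log2 fold change was 0.02, beside 0.01 over all genes tested. Shares this small in a list of 28 leave little to be read from a count of 0.

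The intervals differ widely in what they leave possible. For the even genes the 95% interval of the ratio of genotypes was narrow, as for Slc32a1 (0.944 to 1.16) and Slc6a11 (0.922 to 1.13). It was wide for Gabrd (0.263 to 1.96), Slc6a5 (0.399 to 2.76) and Gabre (0.429 to 2.0), where large differences either way lay within it. A p that misses the threshold is not evidence that these genes were alike in the genotypes.

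**Figure D5:**
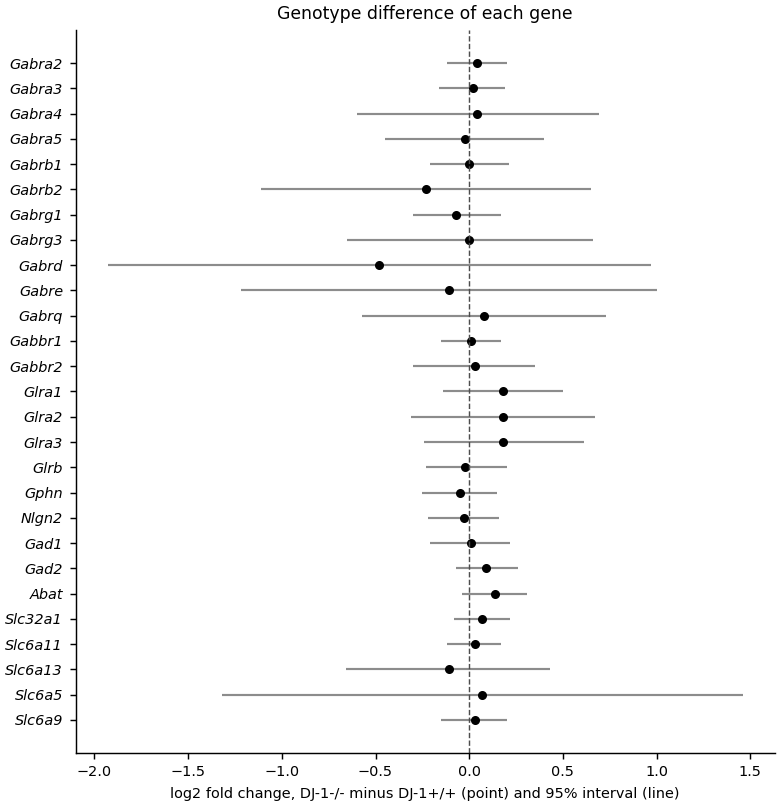
Log2 fold change (DJ-1-/- minus DJ-1+/+) of the 27 genes with a fold change, with its 95% interval from edgeR's fit as a line and 0 dashed. Every interval spans 0, the points lie between -0.48 for Gabrd and 0.18 for the glycine receptor alpha subunits, and the widest intervals belong to Gabrd and Slc6a5.

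The remaining ratios within a mouse gave no difference past the threshold either. Gad1 to Gad2 lay between 0.864 and 1.32 and differed by -0.09 on the log2 scale (two-sided exact permutation test, p = 0.54, adjusted p = 0.905). Slc6a5 to Slc6a9, with 0.5 counts in place of 0, ran from 0.00355 to 0.781 and differed by 0.38 (two-sided exact permutation test, p = 0.841, adjusted p = 0.905). That difference turned on single mice at 0 counts of Slc6a5, being -1.33 without wild-type replicate 4 and 1.84 without knockout replicate 5. With 4 mice against 5 the smallest p this test can give is 0.0159.

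Of 38 further genes of inhibitory transmission, 37 were matched by symbol (Insyn2a was not) and all 37 were tested. By edgeR or DESeq2, 0 of the 37 passed 0.05 before adjustment. Of all 18127 genes tested, 2.83% did so by edgeR and 235 genes by DESeq2. Shares this small leave little to be read from a count of 0 in a list of 37. The median log2 fold change of the 37 genes was 0.02, with 22 higher and 15 lower in knockout mice. The chloride transporters that set the direction of the current were even, Slc12a5, which extrudes chloride, at 189 ± 17 and 185 ± 17.6 cpm and Slc12a2, which imports it, at 149 ± 9.67 and 151 ± 7.57 cpm (SD, n = 4 and n = 5). The largest values were 0.32 (SE 0.36) for Kctd16 and 0.25 (SE 0.43) for Gldc, which had 2 to 9 counts per library. Slc18a2, also of these 37 genes, had the same rounded value of 0.25 (SE 0.24). The lowest were -0.26 (SE 0.23) for Kctd12b and -0.18 (SE 0.13) for Kctd12. The Kctd genes encode auxiliary subunits of the GABA-B receptor, and Gldc the glycine-cleaving decarboxylase. Kctd16, like Gabbr2, was highest in wild-type replicate 4 and knockout replicate 5, at 21.4 and 32.2 cpm, over 8.31 to 18.2 cpm in the others.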

How the data were processed

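For each mouse the authors deposited the count of each gene, as whole numbers of molecular tags and without normalization, listing genes with at least 1 count. Per the submitters' processing notes the tools were fastp 0.20.0, STAR 2.7.3a, featureCounts 2.0.0 and UMI-tools 1.0.0 on GRCm38. The strand setting is not given in the sources used here. Counts were joined by Ensembl identifier, an unlisted gene was given 0, and symbols and positions came from GENCODE M21. All genes that summed to 10 counts or more were tested together with edgeR 4.0.16 (quasi-likelihood, TMM, genotype as the single term) in R 4.3.3, with Benjamini-Hochberg adjustment over 18127 genes. Ratios were compared by exact two-sided permutation over 126 arrangements in scipy 1.17.1. The alternatives included DESeq2 1.42.0. The scripts were tested on simulated data.

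The 9 libraries came from separate animals. The DJ-1-/- libraries were all deeper, so depth and genotype cannot be told apart. Thinning to the smallest total evens the number of counts, but cannot undo differences between libraries that arose before counting. The genes and lists were chosen with earlier results of these data known. Counts (or cpm) per library are given for the most abundant gene of each role, for genes with 1 mouse apart from its group and for genes under the filter, and other genes so described were picked with their values in view. The 2 highest and 2 lowest pathway genes are named.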

Additional observations from a re-analysis of the deposited data

Results flagged for a closer look

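In 66 groups of 4 or 5 values (each gene and each ratio in each genotype), 4 had a single mouse far from the rest of its group by Dixon's criterion at 95%, where chance gives about 1 in 20, or 3.3. Gabrg1 was 122 cpm in DJ-1+/+ replicate 2, above 3 mice at 90.7 to 95 cpm. Gabrq in the same mouse was 77.3 cpm, above 29.1 to 37.2 cpm. Gabrd was 66.3 cpm in DJ-1-/- replicate 5, above 7.23 to 20.6 cpm in the other DJ-1-/- mice. Gabrr1 was 2.27 cpm in DJ-1+/+ replicate 2, which is 2 counts against 0 in the other DJ-1+/+ mice and lies under the lowest level that can be shown.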

How the results depend on the processing

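Of 513 log2 fold changes (27 genes under 19 alternatives), 420 kept their sign and their side of the 0.05 threshold, 90 changed sign (56 of them on leaving out 1 library), and 3 passed the threshold in edgeR. No gene of the set had an adjusted p under 0.05 under any alternative. Gabra2, Glra1, Glra2, Gad2, Abat and Slc32a1 never changed sign.

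Below an unadjusted 0.05, edgeR placed 0 of the 28 genes as reported and 1 with no filter beyond 1 count (Glra1, with a log2 fold change of 0.19 and an unadjusted p of 0.048). On leaving out 1 library it ran from 0 to 1 (Abat without DJ-1+/+ replicate 1, or Gabrd without DJ-1-/- replicate 5). Of the pathway genes it ran from 0 to 1 (Hap1 or Kctd12b) on leaving out 1 library. Over all genes the count was 235 with DESeq2, 802 with no filter and 513 as reported.

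Same-numbered mice were not shown to be paired (correlations of 0.18, -0.00494, -0.0823 and -0.1, 1 of 4 correlating best with its own number). With a replicate block 571 genes had an unadjusted p under 0.05 and 8 an adjusted one in edgeR, 0 of the set and 1 pathway gene (Slc18a2), and the sign changed for Gabra4 (-0.19), Gabra5 (0.11), Gabrg3 (-0.07), Gabre (0.19), Gabbr1 (-0.03), Gabbr2 (-0.11), Glrb (0.01), Gad1 (-0.06) and Slc6a13 (0.01).

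The sign also changed, as log2 fold change, with RLE factors for Gabrg3 (-0.01), Gabbr1 (-0.00159) and Gad1 (-0.00214), with DESeq2 for Gabrg3 (-0.00463), Gabbr1 (-0.00155) and Gad1 (-0.00255), with at least 45 counts for Gabrg3 (-0.00466) and with no filter for Gabrb1 (0.01). With Xist as a covariate it did for Gabrb1 (0.06), Gabrb2 (0.16), Gabrd (0.65), Gabrq (-0.19) and Slc6a5 (-0.32), and with thinned counts for Gabra5 (0.06), Gabrb1 (0.02), Gabrg3 (-0.04), Gabre (0.03) and Gad1 (-0.01). In alternatives chosen after seeing the data, it did without the 2 libraries with 4 and 0 Hox counts for Gabrb1 (0.01), Gabrg3 (-0.00044), Gabre (0.27), Gad1 (-0.07), Slc6a5 (-0.03) and Slc6a9 (-0.01), and with the Hox level as a covariate for Slc6a5 (-0.04). The cause was not tested for any of these.

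Leaving out each library in turn gave ranges across 0 for Gabra3 (-0.03 to 0.05), Gabra4 (-0.23 to 0.47), Gabra5 (-0.16 to 0.11), Gabrb1 (-0.07 to 0.07), Gabrb2 (-0.52 to 0.15), Gabrg1 (-0.13 to 0.04), Gabrg3 (-0.21 to 0.35), Gabrd (-1.46 to 0.46), Gabre (-0.38 to 0.23), Gabrq (-0.10 to 0.47), Gabbr1 (-0.04 to 0.06), Gabbr2 (-0.12 to 0.18), Glra3 (-0.02 to 0.40), Glrb (-0.10 to 0.04), Gphn (-0.09 to 0.01), Nlgn2 (-0.10 to 0.02), Gad1 (-0.07 to 0.07), Slc6a11 (-0.02 to 0.06), Slc6a13 (-0.34 to 0.18), Slc6a5 (-0.35 to 0.54) and Slc6a9 (-0.01 to 0.07), and for the log2 ratios of Gabbr1 to Gabbr2 (-0.10 to 0.06) and Slc6a5 to Slc6a9 (-1.33 to 1.84). Depth limits the rho subunits, at or near 3 counts, and Gabrb2 and Gabre, at 1 to 16 counts. Of the pathway genes it limits Gldc, at 2 to 9 counts, and Shmt1, at 0 to 5 counts.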
